A study of Homo sapiens with 6 samples.

Results

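The clustered protocadherins are 53 protein-coding genes of human chromosome 5 that lie side by side in 3 clusters on the plus strand. They were taken by symbol (PCDHA, PCDHAC, PCDHB, PCDHGA, PCDHGB and PCDHGC genes) from the 60651 gene identifiers counted, which gave 15 genes of the alpha cluster, 16 of the beta cluster and 22 of the gamma cluster. The genes were measured in SK-N-AS, a human neuroblastoma cell line that carried a tetracycline-inducible MYCN construct together with the tetracycline repressor, kept as single clones under G418 and blasticidin. The 3 control cultures received ethanol and the 3 MYCN-induced cultures received tetracycline, both for 120 h (5 days), and RNA depleted of ribosomal RNA was sequenced. Both groups carried the construct and the repressor, a tetracycline control without the MYCN construct was not analysed here, and tetracycline and MYCN therefore cannot be told apart in the comparison. The comparison asks which clustered protocadherins these cells express, and whether their levels differed once MYCN was switched on.

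Clustered protocadherins are cell adhesion proteins of the nervous system. Each neuron expresses its own small selection of them, and matching sets on touching membranes bind each other, which allows a neuron to tell its own branches from those of its neighbours. In the alpha and gamma clusters each gene contributes its own large first exon, with its own promoter, and this exon is spliced to a few constant exons that all genes of the cluster have in common. Beta genes have 1 exon and no constant part. The C-type genes at the end of the alpha and gamma clusters (PCDHAC1, PCDHAC2, PCDHGC3, PCDHGC4 and PCDHGC5) are known to be expressed more evenly from neuron to neuron than the others, and silent or used promoters of the remaining genes are known to differ in DNA methylation and in binding of CTCF and cohesin.

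The libraries held 64500589 to 102249336 estimated read pairs, and MYCN was at 30.3, 35.5 and 32.4 CPM (estimated pairs divided by the library size after TMM normalization) in the controls and at 211, 221 and 199 CPM in the MYCN-induced libraries (log2 fold change 2.68, SE 0.085, edgeR quasi-likelihood test, adjusted p = 4.15e-05). On the first principal component of all tested genes, which held 44.8% of the variance, the controls lay between -40.3 and -25.9, MYCN-induced replicates 1 and 2 at 14.4 and 13.1, and replicate 3 apart from them at 69.1. Of 11 adrenergic neuroblastoma markers, all tested, 0 passed in edgeR (2 lower and 0 higher at an unadjusted p under 0.05) and 2, ISL1 and DBH, fell in DESeq2, with summed levels of 1320 to 1700 CPM in controls and 1310 to 1570 CPM after induction. Of 12 mesenchymal markers, 10 were tested, 8 of them with log2 fold changes above 0. RUNX2 rose (1.45, edgeR adjusted p = 0.0052), FN1 fell (-0.71, edgeR adjusted p = 0.033), 6 were higher and 1 lower at an unadjusted p under 0.05, and 4 rose (VIM, FOSL1, RUNX2 and WWTR1) and 1 fell in DESeq2. RUNX1 and MEOX2 were under 1 CPM in every library, and the sum was 589 to 600 CPM in controls and 668 to 720 CPM after induction. Of 7 blood cell markers, 6 were under 1 CPM in every library, PTPRC was not, and the sum was 2.08 to 2.24 CPM against 1.47 to 2.44 CPM. Over all tested genes, 1.02% rose and 2.38% fell in edgeR, and 3.11% rose and 4.12% fell in DESeq2. At an unadjusted p under 0.05 in edgeR, 8.13% of all tested genes were higher and 10.6% lower. The part of these marker differences in the protocadherin results was not tested.

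The 3 clusters spanned 727 kb (GRCh38, chr5:140786136-141512981), the alpha cluster at chr5:140786136-141012347, the beta cluster at chr5:141051374-141249365 and the gamma cluster at chr5:141330571-141512981. All 15 alpha genes shared the same 2869 exonic bases and all 22 gamma genes shared 2177 to 2179 bases, whereas no 2 beta genes shared an exonic base. Because a read pair that overlapped several genes was divided among them, the pairs of the constant exons were spread evenly over all genes of a cluster, and each alpha or gamma count holds an equal part that does not come from its own first exon. A level of 0 is therefore out of reach for an alpha or gamma gene whose cluster is expressed. Of the 16 beta genes, 13 shared exonic bases with annotated genes other than clustered protocadherins, and pairs there were divided with them. Such sharing was largest for PCDHB2 (1797 of 4098 exonic bases) and PCDHB16 (1001 of 3840). PCDHB12 and PCDHB13 shared none, but had counts that were not whole (509.33 and 436.83 in control replicate 1). The origin of these fractions was not tested. Outside shared bases, a beta count was taken to stand for its own gene, apart from stretches that resemble a neighbour. Such stretches (150-base windows that recur in the region) were most frequent in PCDHB10 (17.93% of its windows), PCDHB8 (16.96%) and PCDHB13 (10.48%). Counts of these genes are less certain because reads there can align equally well to more than 1 place. Counting set no strand option per the file headers, and 9 alpha, 9 beta and 1 gamma gene overlapped exons of a gene on the opposite strand, whose pairs cannot be told apart from theirs.

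Beta genes are set apart by a short promoter element, which is printed here for the genes that hold it, with 18 bases on either side, before the gene start. In the 300 bases from 250 before to 50 after each gene start (RefSeq, GRCh38), available for 47 of the 53 genes, the letters TGGCGCT on either strand occurred in 13 of 14 beta genes (92.9%), in 3 of 20 gamma genes (PCDHGB4, PCDHGB5 and PCDHGC3) and in 0 of 13 alpha genes, against 4.08% of all 35116 promoters in the table. The shorter CGCT, which TGGCGCT contains and which is the core of the conserved sequence element of protocadherin promoters, occurred in 46 of 47 genes and in 70.0% of all promoters. The beta gene without TGGCGCT was PCDHB1, and PCDHB6 and PCDHB11 were among the genes whose promoter was not available. TGGCGCT started at -14 bases from the gene start in PCDHB5 and at 0 in PCDHB8. The E-box CACGTG, the letters that MYC family proteins bind, occurred in PCDHA9, PCDHA10 and PCDHA11 and in 7.26% of all promoters. In the 11 beta genes in which TGGCGCT lay wholly before the gene start with 18 bases on either side, it started 41 to 82 bases before that start, and the windows are given on the plus strand with TGGCGCT in capitals.
PCDHB2 (chr5:141094539-141094581): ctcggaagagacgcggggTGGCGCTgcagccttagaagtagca
PCDHB3 (chr5:141100388-141100430): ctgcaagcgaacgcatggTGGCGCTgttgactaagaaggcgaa
PCDHB4 (chr5:141121718-141121760): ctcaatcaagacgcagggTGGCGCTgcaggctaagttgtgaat
PCDHB7 (chr5:141172561-141172603): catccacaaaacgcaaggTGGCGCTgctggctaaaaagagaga
PCDHB16 (chr5:141182305-141182347): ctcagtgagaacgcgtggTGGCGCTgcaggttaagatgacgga
PCDHB9 (chr5:141187069-141187111): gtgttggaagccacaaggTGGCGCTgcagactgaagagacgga
PCDHB10 (chr5:141192294-141192336): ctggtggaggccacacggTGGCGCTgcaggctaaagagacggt
PCDHB12 (chr5:141208638-141208680): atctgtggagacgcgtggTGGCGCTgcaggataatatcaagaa
PCDHB13 (chr5:141213860-141213902): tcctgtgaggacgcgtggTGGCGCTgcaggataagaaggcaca
PCDHB14 (chr5:141223258-141223300): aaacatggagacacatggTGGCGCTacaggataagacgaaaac
PCDHB15 (chr5:141245309-141245351): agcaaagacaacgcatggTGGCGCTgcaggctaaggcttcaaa
Of the 43 positions, 14 held the same base in all 11 windows, 7 of them outside the capitals. PCDHB2 and PCDHB3, neighbours with the element -58 and -67 bases from the gene start, were among the lowest and the highest beta genes, respectively, as described next. The part of the element in the levels of beta genes was not tested.

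In the beta cluster, expression was concentrated in a few genes. PCDHB3 (ENSG00000113205.5) was highest, with 12.4, 11.8 and 12.5 CPM in the controls and 11.9, 10.7 and 12.2 CPM after induction, followed by PCDHB11 with 9.21, 9.85 and 9.11 CPM in the controls and PCDHB14 with 9.36, 9.01 and 8.04 CPM. These 3 genes held 54.8% of the beta sum in the controls and 57.4% after induction. PCDHB1 was at the other end, with 1 pair in each of 2 libraries (control replicate 1 and MYCN-induced replicate 1) and 0 pairs in the other 4, where a count of 0 allows up to 0.0296 to 0.0354 CPM. PCDHB2 had 4.5 to 12 estimated pairs in every library, or 0.0525 to 0.118 CPM. PCDHB6, PCDHB8 and PCDHB16 lay at 0.317 to 0.496 CPM in the controls, and PCDHB4, PCDHB5, PCDHB7, PCDHB9, PCDHB10, PCDHB12, PCDHB13 and PCDHB15 between these and the leading genes.

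**Figure D1:**
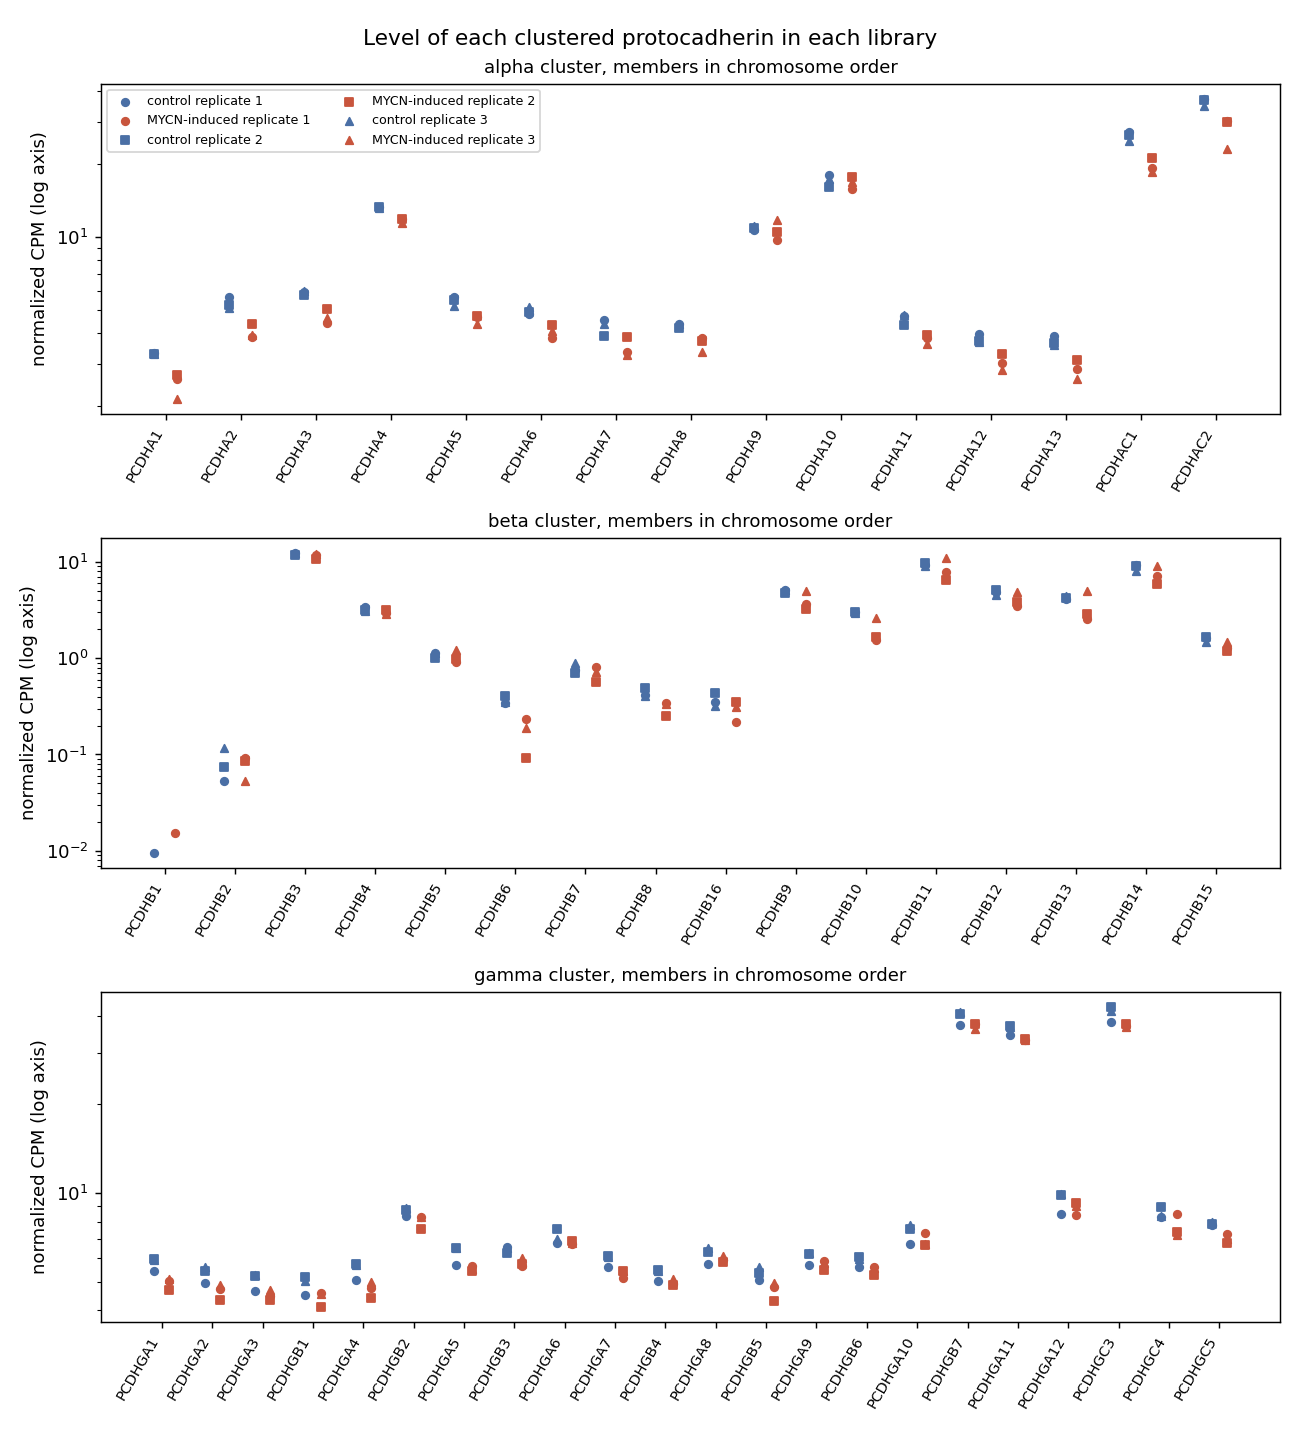
Each point is 1 library's level of 1 gene in normalized CPM on a log axis, with the genes of each cluster in chromosome order, controls in blue, MYCN-induced libraries in red and replicates by shape. PCDHB3, PCDHB11 and PCDHB14 stand highest among beta genes, PCDHAC1 and PCDHAC2 among alpha genes and PCDHGB7, PCDHGA11 and PCDHGC3 among gamma genes; libraries in which PCDHB1 was at 0 are not drawn.

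In the alpha cluster, the C-type genes stood highest. PCDHAC2 (ENSG00000243232.6, chr5:140966470-141012347) was at 37.3, 36.9 and 34.8 CPM in the controls and PCDHAC1 (ENSG00000248383.5, chr5:140926299-141012347) at 27.1, 26.5 and 25.0 CPM. PCDHA10 followed with 18.0, 16.1 and 17.3 CPM and PCDHA4 with 13.3, 13.3 and 13.2 CPM. PCDHA1 was the lowest alpha gene in every library, at 3.31, 3.29 and 3.29 CPM in the controls. Only 7 of its exonic bases belonged to no other gene, but 2719 were shared with just 1 gene, on the opposite strand. Pairs there were divided with that gene and may add to the count of PCDHA1. The level of PCDHA1 is thus an upper limit of the equal part that the constant exons give to every alpha gene. Taking this lowest level off each alpha gene left an excess in which PCDHAC2 and PCDHAC1 held 56.0% of the cluster in the controls and 49.2% after induction. Per kilobase of exon found in no other gene, the excess in the controls was 10.1 CPM for PCDHAC2, 5.52 CPM for PCDHAC1, 1.40 CPM for PCDHA10, 1.21 CPM for PCDHA9 and 0.941 CPM for PCDHA4. PCDHA4, PCDHA9 and PCDHA10 have long annotated exons, so that they lay further below the C-type genes per kilobase than in CPM. The remaining alpha genes other than PCDHA1 had an excess of 0.203 to 0.772 CPM per kilobase in the controls.

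In the gamma cluster, PCDHGC3, PCDHGB7 and PCDHGA11 stood well above the rest. PCDHGC3 (ENSG00000240184.7) was at 38.1, 42.9 and 41.6 CPM in the controls, PCDHGB7 (ENSG00000254122.3) at 37.2, 40.7 and 41.2 CPM and PCDHGA11 (ENSG00000253873.6) at 34.4, 36.8 and 36.5 CPM. The next gene, PCDHGA12, was at 8.47, 9.82 and 9.95 CPM, and the other C-type genes PCDHGC4 and PCDHGC5 at 8.32, 8.93 and 8.36 CPM and 7.76, 7.83 and 7.99 CPM. The lowest gamma gene was PCDHGB1 in 5 libraries and PCDHGA3 in MYCN-induced replicate 1. Above this lowest level, PCDHGC3, PCDHGB7 and PCDHGA11 held 77.5% of the gamma excess in the controls and 76.4% after induction. Per kilobase of exon of their own, the excess in the controls was 12.5 CPM for PCDHGB7, 11.1 CPM for PCDHGC3 and 8.53 CPM for PCDHGA11, against 1.66 CPM for PCDHGA12, 1.30 CPM for PCDHGC4 and 1.03 CPM for PCDHGC5. PCDHGB7 and PCDHGA11 are neighbours and not C-type genes, and the C-type genes PCDHGC4 and PCDHGC5 lay close to PCDHGA12.

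**Figure D2:**
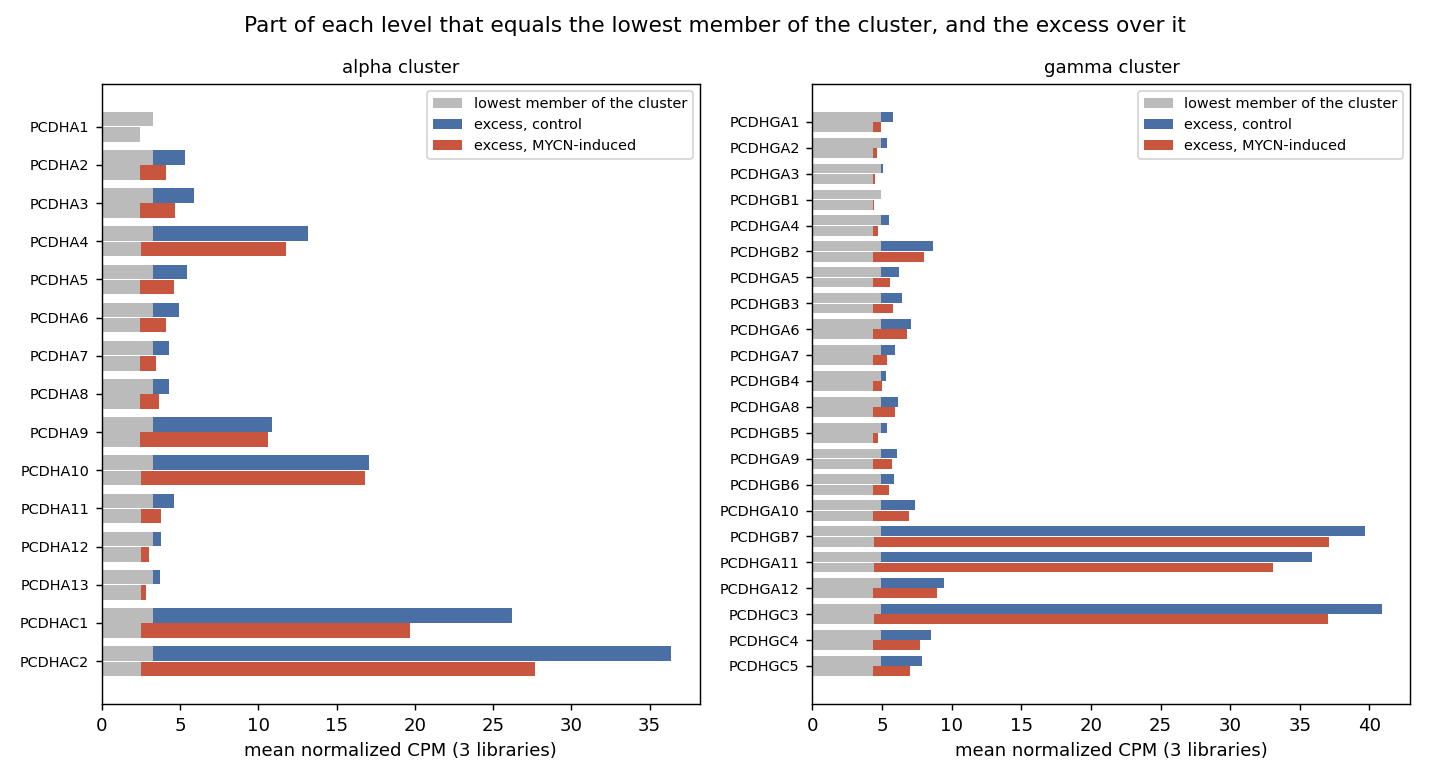
Bars give the mean normalized CPM of 3 libraries for each alpha gene (left) and gamma gene (right), with the upper bar of each pair for the controls and the lower for the MYCN-induced libraries. The grey part equals the lowest gene of the cluster in each library and the coloured part is the excess over it, which is 33.1 CPM for PCDHAC2 and 36.0 CPM for PCDHGC3 in the controls and below 1 CPM for PCDHA12, PCDHA13 and PCDHGB5.

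After induction of MYCN, all 3 clusters were lower on average, and PCDHAC1 was the clustered protocadherin that passed the test. Of the 53 genes, 51 passed the filter on low counts and were tested, and 1 fell and 0 rose, beside 2.38% of all 29086 tested genes that fell and 1.02% that rose (edgeR, adjusted p under 0.05). With DESeq2, 2 fell, PCDHAC1 and PCDHA2, and 0 rose, beside 4.12% of all tested genes that fell and 3.11% that rose. Without adjustment, 14 of the 51 were lower at p under 0.05, namely 11 alpha, 3 beta and 0 gamma genes, and 0 were higher, beside 10.6% of all tested genes lower and 8.13% higher at that p. All 51 log2 fold changes were below 0, against 50.1% of all tested genes, but the alpha and gamma genes share pairs and are not independent of each other. The median log2 fold change was -0.29 over the alpha genes (range -0.42 to -0.03), -0.25 over the beta genes (-1.16 to -0.08) and -0.14 over the gamma genes (-0.23 to -0.05), against 0.0 over all tested genes. The values of the 3 MYCN-induced libraries lay below those of all 3 controls for 13 of 15 alpha, 4 of 14 beta and 12 of 22 gamma genes, against 14.7% of all tested genes, and above them for 0 genes, against 11.5%.

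PCDHAC1 was at 27.1, 26.5 and 25.0 CPM in the controls and at 19.3, 21.2 and 18.5 CPM after induction. Every MYCN-induced library was below every control, and the log2 fold change of -0.41 (SE 0.085, 95% interval -0.61 to -0.22) passed the test narrowly (edgeR, adjusted p = 0.0446). PCDHAC2, its neighbour and fellow C-type gene, was at 30.2, 29.9 and 23.0 CPM after induction against 34.8 to 37.3 CPM in the controls, again without overlap. Its log2 fold change of -0.39 was similar in size, with a larger SE of 0.113, and it did not pass (edgeR, adjusted p = 0.112). PCDHAC1 passed in 1 of 6 fits that each left out a library, the one without MYCN-induced replicate 3 (log2 fold change -0.36, adjusted p = 0.0305), and its adjusted p was 0.0699 when libraries were scaled by their totals alone and 0.0513 when scaled by upper quartiles. Its adjusted p over all alternatives ran from 0.00323 to 0.227, and in bulk RNA fewer cells that express a gene and less RNA per cell cannot be told apart.

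Among the other leading alpha genes, PCDHA10 was at 15.8, 17.7 and 16.9 CPM after induction and overlapped with its controls, with replicate 1 below all of them (log2 fold change -0.03, SE 0.089, edgeR adjusted p = 0.909). PCDHA9 likewise overlapped, with 9.73, 10.5 and 11.7 CPM after induction against 10.7, 10.9 and 11.1 CPM. PCDHA4 was at 11.9, 11.9 and 11.4 CPM, below all its controls (-0.17, SE 0.081, edgeR adjusted p = 0.313). The largest negative value of the cluster belonged to PCDHA1, at 2.58, 2.68 and 2.15 CPM (-0.42, SE 0.126, edgeR adjusted p = 0.127). PCDHA1 is also the gene that sets the lowest level of the cluster. Summed over the cluster, the alpha level was 149 ± 3.31 CPM in the controls and 123 ± 6.94 CPM after induction (SD, n = 3), a difference of -17.5% in which all MYCN-induced libraries were below all controls.

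**Figure D3:**
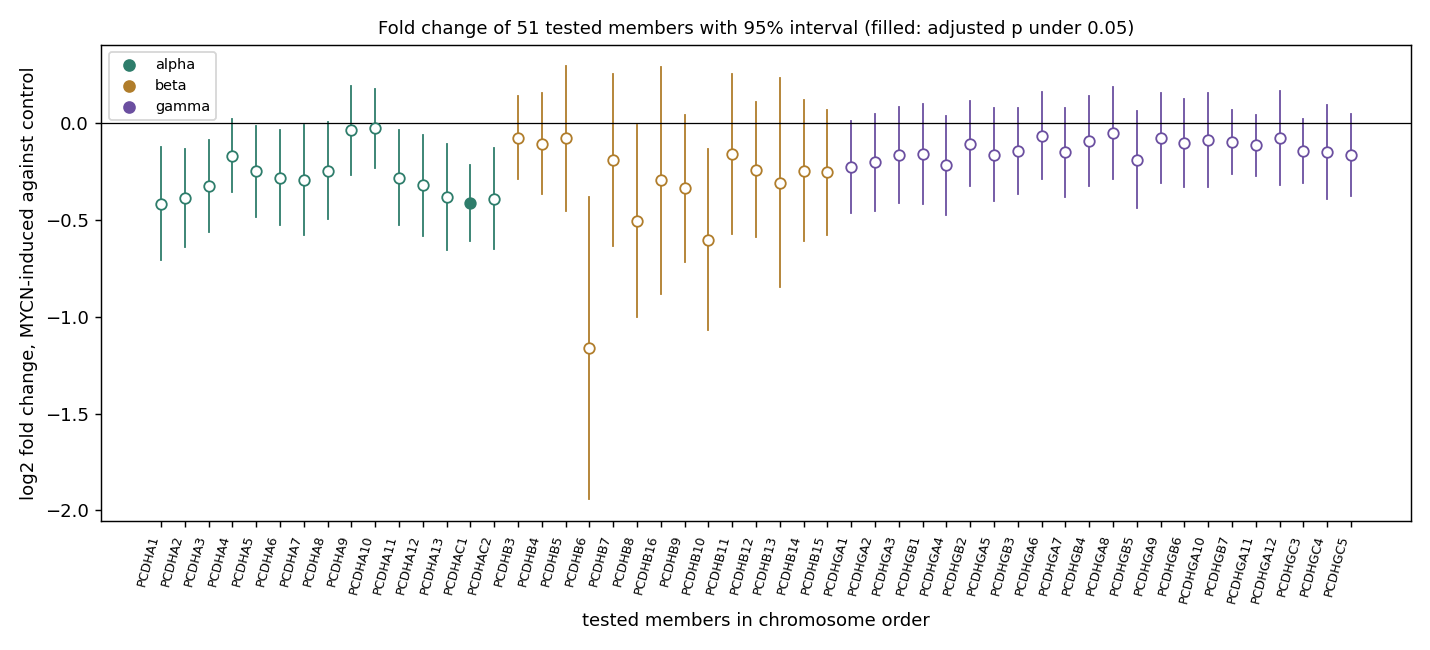
The vertical axis is the log2 fold change of MYCN-induced against control libraries, with 95% intervals, for the 51 tested genes in chromosome order and coloured by cluster. All points lie below 0, from -1.16 for PCDHB6 to -0.03 for PCDHA10, and the single filled point is PCDHAC1, with an adjusted p of 0.0446 in the edgeR fit.

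The constant exons and the own exons of the alpha cluster can be set side by side only roughly. The lowest alpha gene times the 15 genes, an upper limit for all pairs of the constant exons, made up 27.7 to 33.5% of the cluster's counts. It was 49.7, 49.3 and 49.3 CPM in the controls and 38.7, 40.3 and 32.3 CPM after induction. Every MYCN-induced library was lower (log2 ratio of the means -0.41). PCDHA1 was the lowest gene throughout, so this ratio restates the change of PCDHA1. The summed excess was 103, 98.9 and 97.6 CPM in the controls and 84.5, 90.0 and 84.1 CPM after induction (log2 ratio -0.21). Most of that difference lay in the C-type genes, whose excess went from 33.1 ± 1.30 to 25.2 ± 3.77 CPM for PCDHAC2 and from 22.9 ± 1.10 to 17.2 ± 1.16 CPM for PCDHAC1 (SD, n = 3). When the excess was tested in place of the deposited counts, 8 of 14 alpha genes were below 0 and 6 above, the median log2 fold change was -0.04, and PCDHAC1 alone passed (-0.41, edgeR adjusted p = 0.0475). PCDHA8, PCDHA9, PCDHA10 and PCDHA12 were then at 0.19, 0.10, 0.05 and 0.18, and none of these passed. With the lowest level taken off, the median over the alpha genes went from -0.29 to -0.04, while PCDHAC1 and PCDHAC2 kept their values. This contrast follows from the subtraction and is not separate support. The level taken off is that of PCDHA1, the most negative alpha gene, so genes with values nearer 0 move up. PCDHAC1 and PCDHAC2 had values close to that of PCDHA1, and their excess was 87.4% and 90.9% of their control level. Their values therefore could hardly move.

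In the gamma cluster no gene passed the test in edgeR or DESeq2, and 0 of 22 had an unadjusted p under 0.05. PCDHGC3 was at 36.9, 37.4 and 36.5 CPM after induction, below its controls in every library (log2 fold change -0.14, SE 0.072, edgeR adjusted p = 0.336). PCDHGB7 was at 37.6, 37.6 and 36.0 CPM, overlapping its controls (-0.10, SE 0.072, edgeR adjusted p = 0.525). PCDHGA11 was at 33.0, 33.3 and 33.0 CPM, below its controls (-0.12, SE 0.067, edgeR adjusted p = 0.413). These 3 were the highest gamma genes in all 6 libraries. PCDHGA12, PCDHGC4 and PCDHGC5 had log2 fold changes of -0.08, -0.15 and -0.16, with edgeR adjusted p of 0.759, 0.507 and 0.395. The gamma sum was 239 ± 11.8 CPM in the controls and 219 ± 1.96 CPM after induction (SD, n = 3), a difference of -8.38%.

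The lowest gamma gene times 22 made up 41.6 to 46.4% of the gamma counts and overlapped between the groups, at 99.5, 114 and 110 CPM in the controls and 98.1, 90.4 and 99.6 CPM after induction. In the test of the excess, 13 of 21 gamma genes were below 0 and 8 above, with a median log2 fold change of -0.07, and none passed in edgeR. At an unadjusted p under 0.05 in edgeR, 2 of the 21 were lower and 0 higher. In the fit of the deposited counts, 10.6% of all tested genes were lower and 8.13% higher at that p. PCDHGA9 was the gene whose excess was higher in every MYCN-induced library than in any control, at 1.43, 1.38 and 1.27 CPM against 1.16, 0.993 and 1.24 CPM (0.26, edgeR adjusted p = 0.402). PCDHGA1 and PCDHGA4 had the most negative values among genes whose groups did not overlap, -0.59 and -0.70, with edgeR adjusted p of 0.104 and 0.164.

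**Figure D4:**
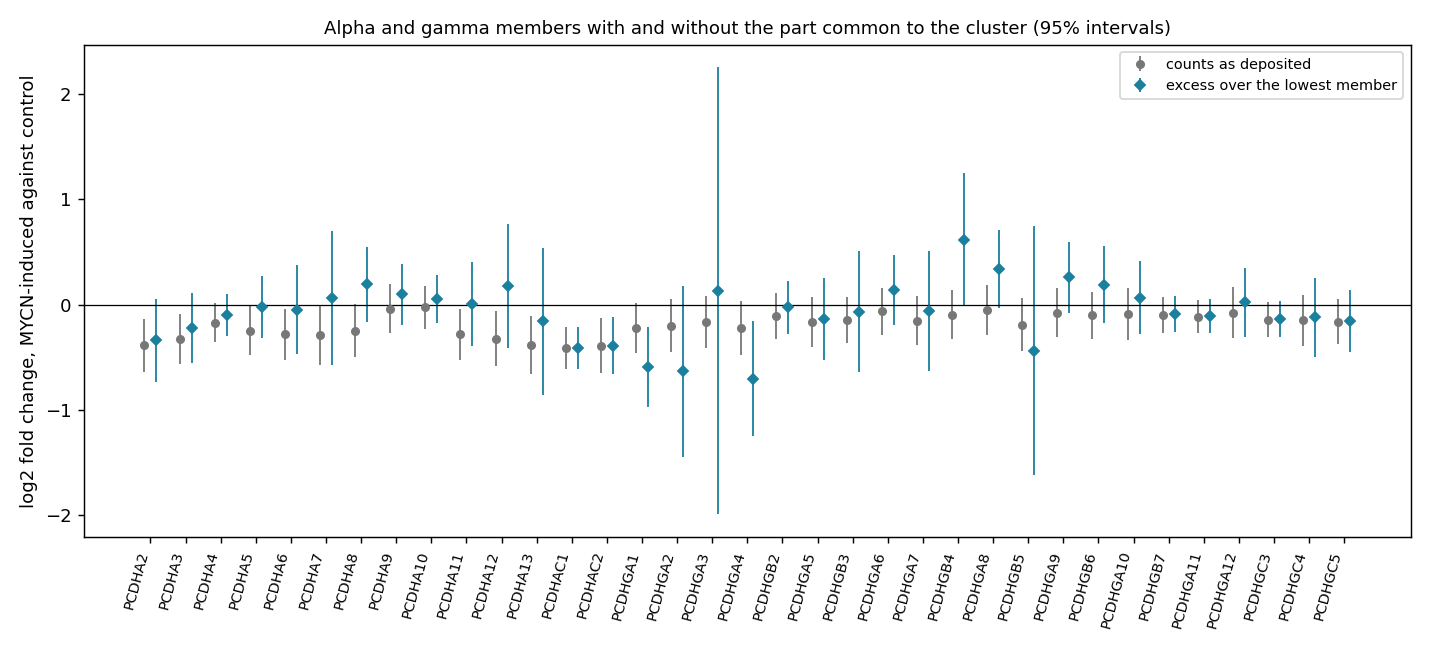
For alpha and gamma genes, grey points give the log2 fold change of the deposited counts and blue diamonds that of the excess over the lowest gene of the cluster, both with 95% intervals. PCDHAC1 and PCDHAC2 keep their values (-0.41 and -0.39 in both), while PCDHA8 to PCDHA12 move to 0 or above; intervals widen most where the excess is small, as for PCDHGA3.

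No beta gene passed the test in edgeR or DESeq2 (3 and 2 of 14 lower at an unadjusted p under 0.05, beside 10.6% and 8.81% of all tested genes), and several beta genes split by library. PCDHB6 had the largest difference, at 0.344, 0.406 and 0.355 CPM in the controls and 0.236, 0.0912 and 0.189 CPM after induction. Every MYCN-induced library was below every control, but the counts were 36.0 in each control and 8.5 to 16 after induction, and the log2 fold change of -1.16 had an SE of 0.337 (95% interval -1.94 to -0.38, edgeR adjusted p = 0.115). No tested beta gene had a value above 0. PCDHB3, the highest beta gene, overlapped between the groups (-0.08, SE 0.093, edgeR adjusted p = 0.727).

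From PCDHB9 to PCDHB14, the MYCN-induced libraries differed among themselves. PCDHB10 was at 3.0, 3.0 and 2.95 CPM in the controls and at 1.56, 1.67 and 2.64 CPM after induction. PCDHB13 was at 4.17, 4.21 and 4.47 CPM and then at 2.58, 2.85 and 4.94 CPM. PCDHB9 was at 5.08, 4.80 and 5.15 CPM and then at 3.63, 3.28 and 4.98 CPM. In each of these, MYCN-induced replicates 1 and 2 were well below all controls, while replicate 3 was 2.64 CPM and thus below all controls for PCDHB10 and within or above the control range for PCDHB13 and PCDHB9. PCDHB11 (7.83, 6.51 and 10.9 CPM after induction), PCDHB12 (3.46, 3.86 and 4.93 CPM) and PCDHB14 (7.22, 5.98 and 9.03 CPM) had the same order. Over the beta cluster, replicates 1 and 2 were both below all controls for 10 of 14 genes (22.5% of all tested genes) and replicate 3 for 6 of 14 (37.4% of all tested genes). Replicates 1 and 2 below all controls with replicate 3 not below them was found for 6 of 14 beta genes (PCDHB5 besides PCDHB9 and PCDHB11 to PCDHB14), 1 of 15 alpha genes, 2 of 22 gamma genes and 7.83% of all tested genes. The order was also seen outside the clusters, as in SPRY4 within the 1 Mb after them (99.7, 82.1 and 128 CPM after induction against 127, 124 and 124 CPM). The beta sum was 56.2, 55.8 and 54.5 CPM in the controls and 45.1, 41.6 and 56.7 CPM after induction, so that it overlapped through replicate 3.

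**Figure D5:**
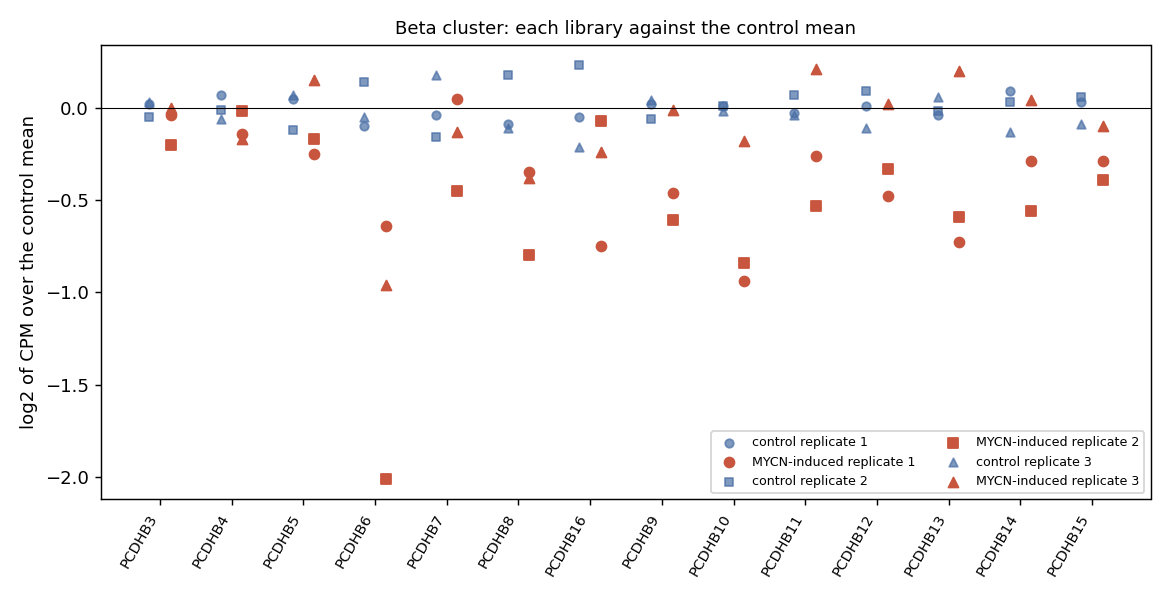
Each point is the log2 ratio of 1 library's CPM to the mean of the controls for the 14 tested beta genes in chromosome order. MYCN-induced replicates 1 and 2 (red circles and squares) lie between -0.94 and -0.26 from PCDHB9 to PCDHB14, whereas replicate 3 (red triangles) lies between -0.18 and 0.21 there.

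MYCN-induced replicate 3 was the library that stood apart over all genes. Without it, 5 clustered protocadherins fell, beside 4.44% of all tested genes that fell in that fit: PCDHB10 (log2 fold change -0.87, edgeR adjusted p = 0.00747), PCDHB13 (-0.65, edgeR adjusted p = 0.0177), PCDHB9 (-0.53, edgeR adjusted p = 0.0274), PCDHAC1 and PCDHAC2 (-0.27, edgeR adjusted p = 0.0376). This fit left 2 MYCN-induced libraries and was chosen from among the 6 that each leave out a library after the values were seen. With all 6 libraries, PCDHB10, PCDHB13 and PCDHB9 had log2 fold changes of -0.60, -0.31 and -0.34 (edgeR adjusted p = 0.161, 0.542 and 0.325).

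TAF7, a subunit of the general transcription factor TFIID that lies between the beta and gamma clusters, was at 101 ± 2.22 CPM in the controls and 101 ± 7.37 CPM after induction (SD, n = 3; log2 fold change -0.01, edgeR adjusted p = 0.966). Of the 27 tested genes inside the span that are not among the 53, 0 passed in edgeR or DESeq2 (3 and 2 lower at an unadjusted p under 0.05, beside 10.6% and 8.81% of all tested genes) and the median was -0.13. Among them, the 6 protocadherin pseudogenes had a median of -0.07. In the 1 Mb on either side, 1 of 54 tested genes fell and 0 rose in edgeR, NRG2, a neuregulin ligand of ERBB receptors before the first protocadherin (-0.84, edgeR adjusted p = 0.049, range over alternatives 0.00316 to 0.219), and the median was -0.05. In DESeq2, 2 of these flanking genes fell, HBEGF and NRG2, and 2 rose, GNPDA1 and DIAPH1. Over all tested genes, 2.38% fell and 1.02% rose in edgeR, and 4.12% fell and 3.11% rose in DESeq2.

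Protocadherins outside the clusters have similar extracellular cadherin repeats and are encoded by single genes. PCDH1 and PCDH12 among them lie within 1 Mb after the clusters and were also counted with the flanking genes. Of 12 such genes, 11 were tested, 3 fell and 0 rose in edgeR (2.38% of all tested genes fell), 6 were lower and 0 higher at an unadjusted p under 0.05 (10.6% of all tested genes were lower), and 5 fell in DESeq2 (4.12% of all tested genes fell), with a median log2 fold change of -0.51. PCDH17, a delta-type protocadherin of synapses and axons, went from 61.2, 59.4 and 63.5 CPM to 30.8, 28.8 and 31.4 CPM (-1.02, SE 0.069, edgeR adjusted p = 0.00176). PCDH19, the delta-type gene mutated in an early epilepsy, went from 5.07, 5.56 and 5.51 CPM to 3.17, 2.69 and 2.62 CPM (-0.93, SE 0.121, edgeR adjusted p = 0.0102). PCDH20 went from 11.5, 11.3 and 11.5 CPM to 4.48, 5.00 and 2.11 CPM (-1.57, SE 0.28, edgeR adjusted p = 0.0292). None of the 3 overlapped between the groups, and each fitted log2 fold change was larger in size than the -0.41 of PCDHAC1. PCDH17 passed in all 13 alternatives, PCDH19 in 11 and PCDH20 in 9.

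Of 26 factors that act on protocadherin promoters (CTCF, cohesin subunits and loaders, DNA methylation and demethylation enzymes, SMCHD1, SETDB1 and others), 0 fell and 1 rose in edgeR. Over all tested genes, 2.38% fell and 1.02% rose in edgeR. At an unadjusted p under 0.05 in edgeR, 0 were lower and 4 higher, beside 10.6% and 8.13% of all tested genes. In DESeq2, 0 fell and 2 rose, beside 4.12% and 3.11% of all tested genes. The median log2 fold change of the 26 was 0.05. The edgeR call was REST, a repressor of neuronal genes, at 150, 149 and 143 CPM in the controls and 175, 186 and 178 CPM after induction (0.29, SE 0.06, edgeR adjusted p = 0.0464, range over alternatives 0.00302 to 0.238). CTCF was at 71.1 ± 2.27 and 74.9 ± 5.24 CPM (SD, n = 3; 0.07, edgeR adjusted p = 0.648). Of 15 cytoplasmic partners and proteases of clustered protocadherins, such as focal adhesion kinases, the WAVE complex and ADAM10, 1 fell and 0 rose in edgeR. At an unadjusted p under 0.05 in edgeR, 2 were lower and 0 higher. In DESeq2, 2 fell, and the median in edgeR was 0.03. The shares of all tested genes beside these counts are those given for the 26 factors. The edgeR call was CYFIP2, a WAVE complex subunit, at 7.40, 7.45 and 8.06 CPM in the controls and 5.29, 4.35 and 5.11 CPM after induction (-0.64, SE 0.114, edgeR adjusted p = 0.0298, range over alternatives 0.000114 to 0.151).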

How the data were processed

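The authors aligned read pairs with STAR (2.7.1a per the submitters' processing notes) to GRCh38 and counted exons with featureCounts. The deposited values are estimated counts per gene and were taken to come from unique alignments. The study's methods, however, name options that also count pairs with several alignments, in fractions. Per the file headers, featureCounts 1.6.4 divided pairs overlapping several genes equally and used no strand option, whereas the notes name version 1.5.1 and the study's methods name a strand option. Depth was 64500589 to 102249336 pairs per library, and a floor of 3 counts equalled 0.0287 to 0.0462 CPM. Floors cover counting error only, and 95% intervals of log2 fold changes come from the edgeR fit and include the spread between libraries.

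Symbols were taken from GENCODE 44 (99.72% of identifiers matched), and 43 of the 53 genes had the same coordinates there. Counts were rounded, and the 29086 genes that reached 10 counts in 3 or more libraries entered edgeR 4.0.16 (R 4.3.3; TMM, quasi-likelihood test, Benjamini-Hochberg adjustment over all tested genes, threshold 0.05). All 6 libraries entered, grouped by sample titles. The study describes independent experiments, and p-values measure only the spread between these libraries. On simulated data for this comparison (28627 genes), edgeR called 140 of 200 genes changed 2-fold and 5 unchanged genes. Smaller changes, such as those estimated for all tested clustered protocadherins except PCDHB6, were not simulated. The excess of a gene is its count minus the lowest count of its cluster in the same library. Alternatives were DESeq2 1.42.0, other normalizations, count filters, unrounded counts, a replicate block, the excess and leaving out each library.

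Genes named were those past the threshold, the 4 highest of each cluster, the C-type genes and the beta gene with the largest fall. PCDHA9, other low genes and the genes from PCDHB9 to PCDHB15, TAF7, SPRY4, CTCF and genes called in DESeq2 alone were added after their values were seen. The members and gene lists were chosen with earlier results of these data known. PCDHA14, a pseudogene, was left out. The 92 listed spike-in sequences had 0 counts. One marker gene is not reported here and was left out of its list.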

Additional observations from a re-analysis of the deposited data

How the results depend on the processing

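The number of clustered protocadherins that fell was 1 in the fit reported, 0 when libraries were scaled by totals alone or by upper quartiles or fitted with the replicate block, 2 with DESeq2 (PCDHAC1 and PCDHA2), and 0 to 5 when each library was left out. No clustered protocadherin rose under any alternative run. Over all tested genes, 904 rose and 1199 fell with DESeq2 (43.0% of calls higher against 30.1%), 470 rose without a count filter, 404 fell with at least 100 counts in every library, and leaving out each library gave 18 to 1060 that rose and 72 to 1279 that fell. Each of these fits used fewer libraries, so the number of libraries and the library left out cannot be told apart. Without MYCN-induced replicate 3, 1279 genes fell, against 692 with all 6 libraries. For the excess over the lowest gene, the median was -0.037 over alpha and -0.068 over gamma genes, and the beta median stayed within the spread. The log2 fold change of PCDHA10 ran from -0.072 to 0.024 when each library was left out, positive without control replicate 1 (0.005) and without MYCN-induced replicate 1 (0.024), and was 0.051 for the excess, and that of PCDHGA12 turned positive for the excess (0.020). None of these had passed the test. Other scalings moved the median of all genes by at most -0.034. With the replicate number as a block, PCDHAC1 was at -0.41 (edgeR adjusted p = 0.0634). Deviations of libraries with the same number correlated at 0.216, -0.019 and 0.074, so that the numbers do not show a pairing. Depth limits PCDHB1 and PCDHB2, which were not tested.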
